A study of Ovis aries with 14 samples.

Results

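Neuropeptide Y (NPY), agouti-related peptide (AGRP), pro-opiomelanocortin (POMC) and pro-melanin-concentrating hormone (PMCH) are the appetite peptide genes described here, in the hypothalamus of fetal sheep exposed to triclosan, an antibacterial agent added to soaps and other household goods. The members were all probes named for one of these 4 genes, either in the scanner files or through the RefSeq gene table. This gave 8 probes, 2 for each gene, out of 15008 probes on the array, of which 1556 carried a gene symbol (964 symbols). The probes were taken by that name rule, while the 4 genes themselves were chosen with earlier results of these data known.

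Total RNA of the hypothalamus was collected at about day 130 of gestation and hybridised to single-colour (Cy3) Agilent ovine arrays. In the direct arm, catheterised fetuses received vehicle (n = 4 arrays) or triclosan at 250 µg per day (n = 4) intravenously for 2 days. In the indirect arm, vehicle (3 arrays) or triclosan at 100 µg/kg per day (n = 3) was given for 2 days into the circulation of the ewe, and it was again the hypothalamus of the fetus that was measured. The doses of the arms are stated per fetus and per kg, so the arms are not matched in dose. The sources used here do not give the vehicle, the breed or the sex of the fetuses, nor do they say whether each array stands for its own pregnancy. The p-values therefore measure only the spread between these arrays, which may in part be technical.

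The array labelled maternal vehicle replicate 3 was not an independent sample. Its signal equalled 0.6 times that of replicate 1 plus 0.4 times that of replicate 2 at all 15744 spots (relative tolerance 1e-05), so it was left out and maternal vehicle had n = 2. Across the 13 arrays used, the median processed signal was 236 to 380 intensity units, 0 spots were saturated, and 83.3% to 90.1% of them lay well above background. The lowest median and the lowest percentage were those of fetal triclosan replicate 4. The median signal was 236 to 307 in fetal triclosan and 315 to 380 in fetal vehicle, so these groups did not overlap in brightness before scaling. The arrays numbered 1, 2 and 3 of the groups lay on slides 1, 2 and 3, and fetal vehicle replicate 4 shared slide 3. Fetal triclosan replicate 4 lay alone on a slide scanned on another day, and values without it are given beside the results.

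NPY and AGRP are made together by one set of neurons of the arcuate nucleus, and both promote feeding: NPY through its own receptors, and AGRP by blocking the melanocortin receptors. POMC is made by a neighbouring set of arcuate neurons, is cut into alpha-melanocyte-stimulating hormone, which restrains feeding at the same melanocortin receptors, and is also the main product of pituitary corticotrophs and melanotrophs. PMCH is made in the lateral hypothalamus and zona incerta, and its product, melanin-concentrating hormone, promotes feeding. In the sheep these circuits form before birth.

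The probes show what each measurement read. The pair of AGRP probes is shown because AGRP had the widest range of all members, with capitals for the 52 bases that both probes hold.
AGRP probe 1: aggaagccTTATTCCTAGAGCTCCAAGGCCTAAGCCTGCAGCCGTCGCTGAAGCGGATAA
AGRP probe 2: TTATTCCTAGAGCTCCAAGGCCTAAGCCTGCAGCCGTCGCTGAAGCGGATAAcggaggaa

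The POMC probes are shown because they read the end of a reading frame, with capitals for their 59 shared bases. Base 58 to base 60 of the second probe read tga, a stop codon in the frame that starts at its base 1.
POMC probe 1: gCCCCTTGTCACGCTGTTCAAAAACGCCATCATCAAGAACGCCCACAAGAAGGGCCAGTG
POMC probe 2: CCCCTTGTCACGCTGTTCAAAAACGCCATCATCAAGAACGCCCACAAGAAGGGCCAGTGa

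For NPY the first 30 bases of each 60-base probe are printed, with capitals for the first TGA in the frame that starts at base 1, at base 7 of the first probe and at base 4 of the second.
NPY probe 1, bases 1 to 30: atgtggTGAtgggaaatgaaacttgctctc
NPY probe 2, bases 1 to 30: tggTGAtgggaaatgaaacttgctctccag

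The NPY probes shared 57 of 60 bases and the PMCH probes 59 of 60. The 2 probes of a gene were therefore 1 measurement made at nearly the same place, and they do not check each other as separate regions of a transcript would. Over the 13 arrays their log2 values correlated at r = 0.99 for AGRP, 1.00 for NPY, 1.00 for POMC and 0.92 for PMCH. GC content was 55% for both AGRP probes, 45% for both NPY probes, 55% and 53.3% for POMC, and 36.7% and 35% for PMCH. In what follows the probe with the higher mean stands for the gene, and it was the first probe for each of the 4 genes. The choice mattered most for PMCH, whose second probe gave log2 differences (triclosan minus vehicle) of 0.27 in the direct arm, 0.36 in the indirect arm and 0.31 on average, against 0.52, 0.63 and 0.58 for the first. In the same order the second probes gave 0.58, 1.69 and 1.14 for NPY, 1.46, 3.70 and 2.58 for AGRP, and 0.67, 1.71 and 1.19 for POMC.

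Values below are signals as a percentage of the 75th percentile of the same array, so that 100% is as bright as the probe at that percentile. They compare arrays for 1 probe and do not rank the genes against each other. Every one of the 26 values of each gene (2 probes on 13 arrays) was well above background. The margin differed: the dimmest NPY and POMC values were 56.7 and 50.2 times the lowest signal called above background on their array, the dimmest AGRP value 1.33 times and the dimmest PMCH value 2.15 times.

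NPY was measured at 93.1%, 84.4%, 105% and 246% in fetal vehicle replicates 1 to 4, and at 321%, 314%, 232% and 50.5% in fetal triclosan replicates 1 to 4. In the indirect arm it was measured at 101% and 105% in maternal vehicle, and at 309%, 301% and 404% in maternal triclosan. In the direct arm one vehicle array, replicate 4, lay among the triclosan values and one triclosan array, replicate 4, lay below every vehicle array, so the groups overlapped, as they did for all 4 members. Over all probes 21.9% had direct groups that did not overlap, 9.3% with triclosan higher. In the indirect arm all 3 triclosan arrays lay above both vehicle arrays.

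AGRP was measured at 2.54%, 4.95%, 10.7% and 20.5% in fetal vehicle replicates 1 to 4, and at 63.4%, 35.8%, 19.4% and 1.58% in fetal triclosan replicates 1 to 4. It was measured at 1.92% and 6.91% in maternal vehicle, and at 22.7%, 39.0% and 66.9% in maternal triclosan. As for NPY, fetal vehicle replicate 4 was the highest vehicle array and fetal triclosan replicate 4 the lowest of all 13 arrays, the direct groups overlapped, and the indirect groups did not. The highest array exceeded the lowest 42.2-fold for AGRP, against 7.99-fold for NPY, 7.52-fold for POMC and 4.46-fold for PMCH.

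POMC was measured at 83.3%, 119%, 58.7% and 231% in fetal vehicle replicates 1 to 4, and at 211%, 169%, 229% and 101% in fetal triclosan replicates 1 to 4. It was measured at 49.7% and 101% in maternal vehicle, and at 139%, 215% and 374% in maternal triclosan. Fetal vehicle replicate 4 again stood above the other vehicle arrays, in this gene above all 4 fetal triclosan arrays. The indirect groups did not overlap.

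PMCH was measured at 2.79%, 2.84%, 1.496% and 4.47% in fetal vehicle replicates 1 to 4, and at 3.33%, 4.44%, 4.61% and 3.28% in fetal triclosan replicates 1 to 4. It was measured at 2.85% and 3.10% in maternal vehicle, and at 3.10%, 4.76% and 6.67% in maternal triclosan. Fetal triclosan replicate 4, the lowest array for NPY and AGRP, was not the lowest for PMCH, which had its lowest value in fetal vehicle replicate 3. Both arms overlapped for PMCH, the indirect arm only narrowly.

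**Figure D1:**
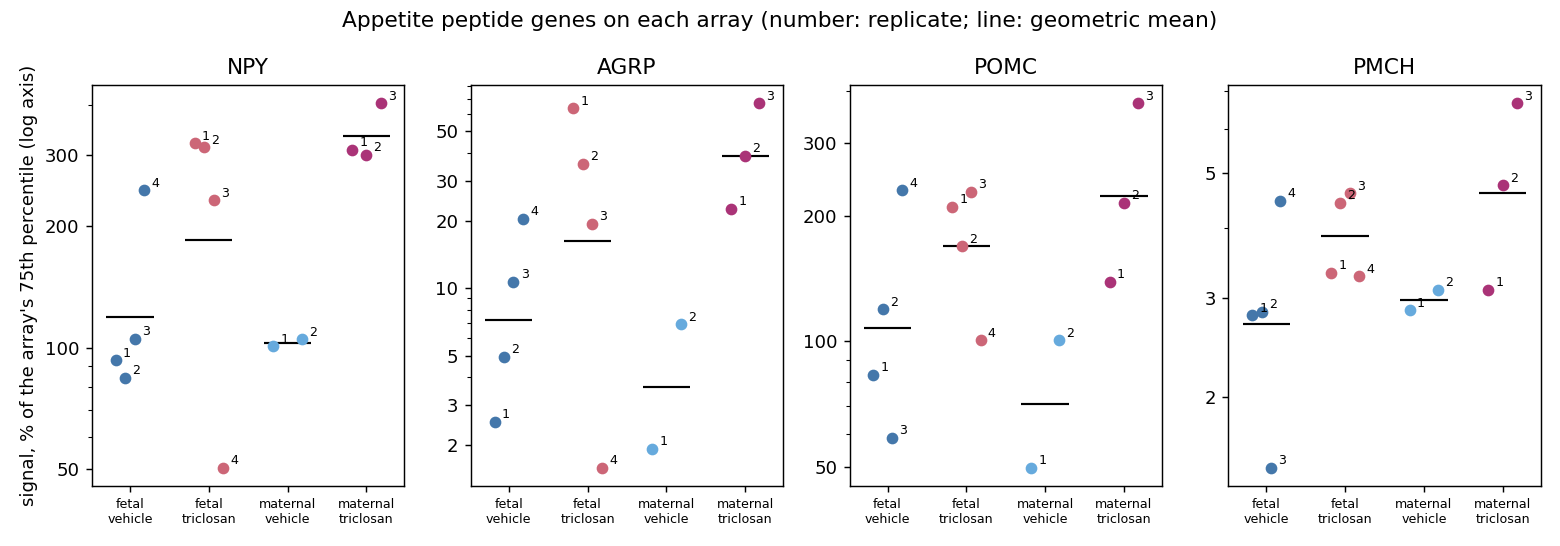
Signal of NPY, AGRP, POMC and PMCH on each of the 13 arrays, as a percentage of the array's 75th percentile on a log axis that differs between panels. Points are arrays numbered by replicate and lines are geometric means of a group; maternal triclosan lies above maternal vehicle for NPY, AGRP and POMC, while fetal vehicle replicate 4 and fetal triclosan replicate 4 cross into the other fetal group for NPY.

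The order of the 4 groups by geometric mean was the same for NPY, AGRP and POMC: maternal vehicle lowest, then fetal vehicle, fetal triclosan and maternal triclosan. For NPY the means were 103%, 119%, 185% and 335%. For AGRP they were 3.64%, 7.24%, 16.3% and 38.9%, and for POMC 70.8%, 108%, 169% and 224%. Neighbours in this order overlapped in range for each of the 3 genes, so the order of adjacent groups was not resolved beyond their spread. For PMCH the vehicle groups changed places, with fetal vehicle at 2.70%, maternal vehicle at 2.98%, fetal triclosan at 3.86% and maternal triclosan at 4.62%. There the maternal vehicle and fetal triclosan ranges did not overlap, while the other neighbours did.

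The direct arm asks how the genes differed when the fetus itself received triclosan. None of the 4 genes passed the test, limma across all 13738 kept probes with Benjamini-Hochberg adjustment at 0.05, whereas 18.2% of the probes did and 6.82% did so with a higher value. All 4 differences lay above 0, with a median of 0.64 on the log2 scale, against a median of −0.09 over all probes, of which 42% lay above 0. With median scaling in place of the 75th percentile the median over all probes moved to 0.13, and 69.7% of the called probes were higher in place of 37.5%, so the members are best read against that median. They were above it under both scalings. NPY differed by 0.64 (SE 0.54; 1.55-fold, 95% interval 0.686 to 3.52; adjusted p = 0.446 in limma). AGRP differed by 1.17 (SE 1.04; 2.24-fold, interval 0.460 to 10.96; adjusted p = 0.471 in limma). POMC differed by 0.65 (SE 0.45; 1.57-fold, interval 0.789 to 3.13; adjusted p = 0.348 in limma), and PMCH by 0.52 (SE 0.31; 1.43-fold, interval 0.890 to 2.31; adjusted p = 0.278 in limma). The intervals reach from below 1-fold to 2.31-fold or more, so neither a higher level nor its absence was resolved. At an unadjusted p under 0.05 stood 0 of the 4 genes and 33.1% of all probes. Two-sided exact permutation tests of single genes gave p = 0.429 for NPY, 0.4 for AGRP, 0.286 for POMC and 0.171 for PMCH, where the smallest p that 4 against 4 arrays allows is 0.0286.

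The direct result for NPY and AGRP rested on fetal triclosan replicate 4. Without that array NPY was higher by 1.26 (SE 0.33; adjusted p = 0.0219 in limma) and passed, where 21.4% of probes passed and 8.31% were higher. AGRP differed by 2.29 (SE 0.74; adjusted p = 0.0529 in limma) and did not pass. POMC and PMCH differed by 0.90 and 0.60 and did not pass. With the slide as a block, which leaves replicate 4 without a partner and so also rests on replicates 1 to 3, NPY was higher by 1.32 (adjusted p = 0.0276 in limma) and AGRP by 2.43 (adjusted p = 0.0445 in limma), where 21.6% of probes passed and 8.07% were higher. With the slide as a random block, chosen after the data were seen and keeping replicate 4, NPY differed by 0.79 (adjusted p = 0.285 in limma) and AGRP by 1.46 (adjusted p = 0.307 in limma).

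Within slides, each difference was above 0 in the direct arm for all 4 genes, with 1 triclosan array on each slide and 1 or 2 vehicle arrays. On slides 1, 2 and 3 the log2 difference was 1.79, 1.90 and 0.53 for NPY, and 4.64, 2.86 and 0.39 for AGRP. It was 1.34, 0.50 and 0.98 for POMC, and 0.25, 0.65 and 0.83 for PMCH. The smallest differences of NPY and AGRP came from slide 3, which holds fetal vehicle replicate 4. Leaving out that vehicle array gave direct differences of 0.98 for NPY, 1.67 for AGRP, 1.02 for POMC and 0.76 for PMCH, and none of these passed (adjusted p = 0.112 to 0.347 in limma). The lowest values came without fetal triclosan replicate 1 for NPY (0.37) and AGRP (0.51), and without fetal vehicle replicate 3 for POMC (0.36) and PMCH (0.23).

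**Figure D2:**
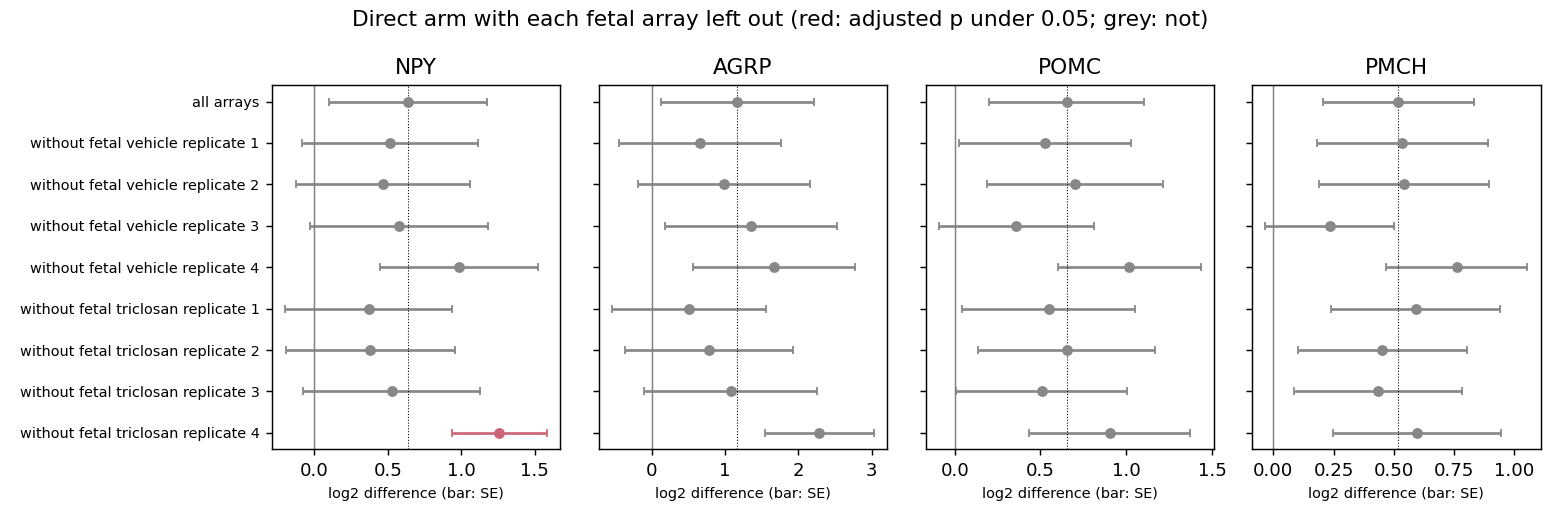
Log2 difference between fetal triclosan and fetal vehicle (x axis, bar: SE) with all 13 arrays and with each fetal array left out in turn (y axis); red marks an adjusted p under 0.05 and the dotted line the value with all arrays. NPY passed only without fetal triclosan replicate 4, where its difference was 1.26 in place of 0.64.

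The indirect arm asks the same when the ewe received triclosan. The differences were larger in size, and none passed the test (adjusted p = 0.458 to 0.612 in limma), nor did any of the 13738 probes (0 called in limma, and 1324 or 9.64% at an unadjusted p under 0.05, 4.93% with a higher value). NPY differed by 1.70 (SE 0.69; 3.25-fold, interval 1.13 to 9.35; adjusted p = 0.493 in limma). AGRP differed by 3.42 (SE 1.35; 10.7-fold, interval 1.38 to 82.9; adjusted p = 0.480 in limma). POMC differed by 1.66 (SE 0.59; 3.16-fold, interval 1.30 to 7.70; adjusted p = 0.458 in limma) and PMCH by 0.63 (SE 0.40; 1.55-fold, interval 0.839 to 2.87; adjusted p = 0.612 in limma). The median of the 4 was 1.68, against 0.01 over all probes.

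For NPY, AGRP and POMC the indirect groups did not overlap, with triclosan higher. With 3 arrays against 2 this was common: the groups did not overlap for 39.1% of all probes, and triclosan was the higher group for 19.9%. Exact permutation tests cannot go below p = 0.1 with 3 against 2 arrays, and gave 0.1 for NPY, 0.1 for AGRP, 0.2 for POMC and 0.3 for PMCH. Within slides 1 and 2 the log2 difference was 1.62 and 1.52 for NPY, 3.56 and 2.49 for AGRP, 1.48 and 1.098 for POMC, and 0.12 and 0.62 for PMCH. The values of the dim genes depended on the background correction: with normexp correction the difference was 2.00 in place of 3.42 for AGRP and −0.069 in place of 0.63 for PMCH.

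Over both arms together, the mean of the direct and indirect differences was 1.17 (SE 0.44; 2.25-fold) for NPY, 2.29 (SE 0.85; 4.90-fold) for AGRP, 1.16 (SE 0.37; 2.23-fold) for POMC and 0.58 (SE 0.26; 1.49-fold) for PMCH. None passed after adjustment over all probes (adjusted p = 0.118, 0.114, 0.0723 and 0.181 in limma), while 9.34% of probes passed and 3.2% were higher. Of the called probes 34.3% were higher, and 64.4% with median scaling. For the first probes and the main scaling the intervals of the 4 genes lay above 1-fold, from 1.15 to 4.38 for NPY, 1.34 to 17.9 for AGRP, 1.27 to 3.91 for POMC and 1.01 to 2.20 for PMCH. PMCH was at that limit: its second probe gave an interval of 0.853 to 1.80, and normexp correction a difference of 0.16 (SE 0.15). Of all probes 26.0% had an unadjusted p under 0.05, 10.5% with a higher value. Exact permutation of the arrays within each arm (700 splits) gave p = 0.0357 for NPY, 0.0371 for AGRP, 0.0314 for POMC and 0.0529 for PMCH, unadjusted for the 4 genes examined, and these genes were described here with earlier results of the same arrays known.

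The averaged call also turned on single arrays and on the slide. Without fetal triclosan replicate 4, NPY rose by 1.48 (adjusted p = 0.00851 in limma), AGRP by 2.85 (adjusted p = 0.0124 in limma) and POMC by 1.28 (adjusted p = 0.0403 in limma), where 16.1% of probes passed and 6.09% were higher. With the slide as a block NPY rose by 1.45 (adjusted p = 0.0110 in limma), AGRP by 2.78 (adjusted p = 0.0145 in limma) and POMC by 1.24 (adjusted p = 0.0447 in limma), where 19.0% passed and 7.3% were higher. With the slide as a random block, which keeps fetal triclosan replicate 4, NPY differed by 1.22 and AGRP by 2.37 and did not pass (adjusted p = 0.0630 and 0.0612 in limma), while POMC did (1.16, adjusted p = 0.0433 in limma). POMC also passed without fetal vehicle replicate 4, at 1.34 (adjusted p = 0.0371 in limma). PMCH passed in none of these fits.

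**Figure D3:**
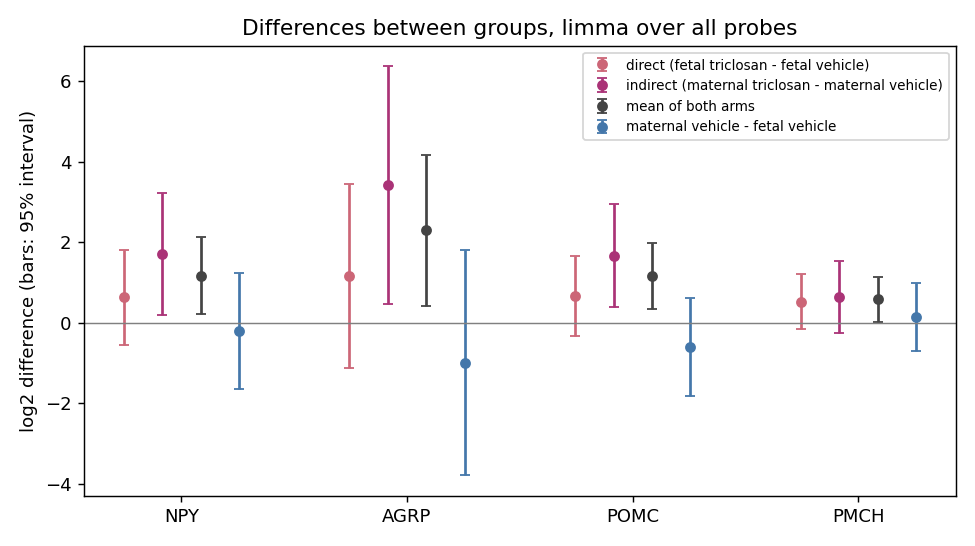
Log2 differences with 95% intervals from limma (y axis) for NPY, AGRP, POMC and PMCH (x axis) in the direct arm, the indirect arm, the mean of both arms and the maternal against the fetal vehicle group. The direct intervals span 0 for all 4 genes, the intervals of the mean of both arms lie above 0, and AGRP has the widest intervals.

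The arms were not shown to differ from each other. The direct minus the indirect difference was −1.07 (SE 0.88; adjusted p = 0.552 in limma) for NPY, −2.25 (SE 1.70; adjusted p = 0.520 in limma) for AGRP, −1.01 (SE 0.74; adjusted p = 0.509 in limma) for POMC and −0.12 (SE 0.51; adjusted p = 0.920 in limma) for PMCH. The sizes moved with the slide: with the slide as a block they were −0.26 for NPY, −0.71 for AGRP and −0.51 for POMC. With normexp correction AGRP was at −0.85. Without maternal vehicle replicate 1 AGRP was at −1.33 and POMC at −0.50, and without replicate 2 at −3.18 and −1.52. In this comparison 0 of 13738 probes passed in limma and 2013 (14.7%) had an unadjusted p under 0.05, 5.2% with a higher value. Between the vehicle groups, maternal minus fetal vehicle was −0.21 (SE 0.66) for NPY, −0.99 (SE 1.28) for AGRP and −0.61 (SE 0.56) for POMC. All 4 adjusted p-values were 0.999 in limma, with overlapping ranges for each gene, where 17.2% of all probes had vehicle groups that did not overlap. For NPY and AGRP the direction was not stable: within slides 1 and 2 NPY was at 0.12 and 0.32, AGRP at −0.40 and 0.48, and POMC at −0.74 and −0.25. AGRP was at −0.11 with normexp correction. Without maternal vehicle replicate 1 AGRP was at −0.067 and POMC at −0.098.

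The members varied more within groups than most probes did. The SD of log2 values about the group means was 1.65 for AGRP (above 99.7% of kept probes), 0.85 for NPY (above 93.9%), 0.71 for POMC (above 90.4%) and 0.48 for PMCH (above 79.1%). The median over kept probes was 0.27. These ranks are over probes of all brightness, and AGRP and PMCH were dim. With normexp correction the SE of the direct difference was 0.59 in place of 1.04 for AGRP and 0.19 in place of 0.31 for PMCH. For NPY it was 0.48 in place of 0.54, and for POMC 0.41 in place of 0.45. In RNA of a whole hypothalamus, fewer cells of a type and less RNA per cell cannot be told apart.

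The same arrays were high or low across the members. Fetal vehicle replicates 1 to 3, both maternal vehicle arrays and fetal triclosan replicate 4 were the 6 lowest arrays for each of NPY, AGRP and POMC, and 5 of these 6 were also among the 6 lowest for PMCH. For each member 5 of 7 triclosan arrays and 1 of 6 vehicle arrays lay above the gene's median over the 13 arrays. NPY left a gap of 1.14 on the log2 scale, 38.1% of its range, between its 6 lowest and 7 highest arrays, so no correlation of NPY with another member is given over all arrays. Within the 7 arrays above the gap NPY and AGRP had r = 0.84 and rho = 0.89 (exact permutation p = 0.013 and 0.012; adjusted over 6 such relations 0.078 and 0.072), and within the 6 arrays below it r = 0.61 and rho = 0.77 (exact permutation p = 0.17 and 0.1). NPY and POMC had r = 0.32 above the gap (exact permutation p = 0.5) and −0.46 below it (exact permutation p = 0.39), so their relation could not be seen within either set of arrays. Each set holds few arrays and a narrower range of NPY, which can weaken r, so these values do not show that a relation is absent.

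For pairs without NPY, values over 13 arrays gave r = 0.80 and rho = 0.78 for AGRP and POMC (permutation p = 0.0012 and 0.0025; adjusted over 6 pairs 0.0023 and 0.005), and r = 0.77 without the 2 arrays farthest from the median AGRP value. POMC and PMCH had r = 0.85 and rho = 0.88 (permutation p = 0.00014 and 0.00019; adjusted 0.00042 and 0.00057), and r = 0.88 without the 2 farthest arrays. With normexp background correction the r of POMC and PMCH was 0.30, so it depended on how the dim PMCH signal was corrected. AGRP and PMCH had r = 0.54 and rho = 0.66 (permutation p = 0.056 and 0.016; adjusted 0.056 and 0.019). These values hold the group differences too. For deviations from the group means, r was 0.66 for AGRP and POMC (permutation p = 0.012, adjusted 0.019; rho = 0.66) and 0.59 without the 2 farthest arrays. Without fetal vehicle replicate 4, and likewise without fetal triclosan replicate 4, it was 0.60 and did not pass (permutation p adjusted to 0.0693 and 0.0625). It was 0.85 for POMC and PMCH (permutation p = 0.00016, adjusted 0.00048; rho = 0.86) and 0.73 without them, with 0.31 after normexp correction. For AGRP and PMCH it was 0.30 (permutation p = 0.32). The permutations of deviations shuffled 13 values freely, though the group means had been removed and 9 residual degrees of freedom remained. Their p-values are therefore too small, and they do not settle whether a pair passes on deviations.

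A difference between the feeding-promoting and the feeding-restraining genes was not resolved. Within each array, the NPY minus POMC difference was compared between triclosan and vehicle, a measure that a single scaling factor per array cannot change, though background correction and quantile normalisation can. It differed by −0.02 in the direct arm and by 0.04 in the indirect arm on the log2 scale (exact permutation p = 0.971 and 0.9). AGRP minus POMC differed by 0.51 and 1.76 (exact permutation p = 0.657 and 0.1), and AGRP minus NPY by 0.53 and 1.72 (exact permutation p = 0.4 and 0.1). Adjusted over the 3 pairs these p-values were 0.971 for each in the direct arm and 0.15 or above in the indirect arm, where 0.1 is the smallest that can be reached. With normexp correction the indirect values of AGRP minus POMC and AGRP minus NPY were 0.39 and 0.31 (exact permutation p = 0.5 for both), and with quantile normalisation the direct values were 0.79 and 0.83. With the authors' deposited values the indirect ones were 1.22 and 1.22. These 3 differences and their alternatives were chosen after the data were seen.

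By Pearson's r over the 13 arrays, the named genes most like each member were taken from 882 genes, as a description only, since the arrays share scaling and groups. For NPY these r also span the gap between its low and high arrays, so they rank likeness and no more. NPY was followed most closely by PHF14 (r = 0.95), TIMP1, an inhibitor of matrix metalloproteinases (0.89), and TAC3, the neurokinin B precursor (0.88). AGRP was followed by PHF14 (0.95), CALML4 (0.86) and GHRH, growth hormone-releasing hormone (0.85). POMC was followed by GHRH (0.85), PHF14 (0.81) and CALML4 (0.81). PMCH was followed less closely, by DCN, the matrix proteoglycan decorin (0.75), NR5A1, a transcription factor of the ventromedial hypothalamus (0.74), and PGFS (0.73). PHF14 differed by only 0.18 in the direct and 0.30 in the indirect arm (adjusted p = 0.383 and 0.586 in limma), so it followed the order of the arrays with a much smaller range.

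Receptors and antagonists of the melanocortin and NPY families were measured in part, 4 of the 19 listed genes. MC5R, the only melanocortin receptor among the 4, fell by 1.00 in the direct arm (SE 0.23; adjusted p = 0.0132 in limma). There 11.4% of all probes passed with a lower value. In the indirect arm MC5R was measured at −0.57 (adjusted p = 0.562 in limma). NPY1R, a main NPY receptor of feeding, differed by 0.15 and 0.57 in the direct and indirect arms (adjusted p = 0.709 and 0.570 in limma). NPY2R, the presynaptic NPY receptor, differed by −0.71 and −0.59 (adjusted p = 0.476 and 0.820 in limma). ASIP, agouti signalling protein, a melanocortin antagonist like AGRP, was measured at 1321%, 1363%, 3554% and 2474% in fetal vehicle, and at 4112%, 4175%, 3731% and 3913% in fetal triclosan (adjusted p = 0.673 in limma). It was measured at 2340% and 3217% in maternal vehicle, and at 10.7%, 10.3% and 3361% in maternal triclosan replicates 1 to 3 (adjusted p = 0.459 in limma). Maternal triclosan replicates 1 and 2 thus stood far below the other 11 arrays and replicate 3 did not, so the mean of that group describes none of its arrays. The median of the 4 was −0.28 in the direct arm and −0.58 in the indirect arm, against −0.09 and 0.01 over all probes.

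Of other feeding-related peptides and enzymes few were on the array with a name. Over all probes 18.2% passed in the direct arm (6.82% higher and 11.4% lower) and 9.34% over both arms. In the indirect arm 0 probes passed, so the counts of 0 there say nothing about a list. Among 4 measured of 12 other orexigenic genes, 0 passed in either arm, and GHRH rose by 2.68 over both arms (adjusted p = 0.0460 in limma). Among 4 measured of 21 other anorexigenic genes, 0 passed in either arm, and TAC1, the substance P precursor, rose by 0.35 over both arms (adjusted p = 0.0469 in limma). CPE, carboxypeptidase E, which trims peptides after their precursors are cut, was the only 1 of 15 processing genes measured, and differed by 0.13 and −0.23 (adjusted p = 0.583 and 0.688 in limma). Of 30 genes listed for energy signals, their receptors and sensors, 10 were measured and 0 passed in either arm. The 10 include the hormones LEP and GHRL. In the direct arm 1 of the 10 lay above 0, with a median of −0.38 against −0.09 over all probes. In the indirect arm 6 did, with a median of 0.06 against 0.01. The 1 above 0 in the direct arm was LEPR, the leptin receptor, which differed by 0.51 and 0.75 (adjusted p = 0.501 and 0.697 in limma). FTO, a locus linked to body weight, differed by −0.48 and −0.35 (adjusted p = 0.0536 and 0.578 in limma). GHRL was counted both in this list and among the orexigenic genes. Of 29 transcription factors listed for the arcuate nucleus and lateral hypothalamus 7 were measured. Not all of them are particular to these regions, and NR5A1, named above for the ventromedial hypothalamus, is among the 7. NR3C1, the glucocorticoid receptor, rose by 0.69 in the direct arm (adjusted p = 0.0154 in limma), and ARNT2, the partner of SIM1, fell by 0.77 (adjusted p = 0.0208 in limma).

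Other hypothalamic peptides, which also mark the tissue, followed the members' array order only in part. Of 11 measured of 23, 10 were above background on all arrays, and differences lay above 0 for 9 in the direct and for 10 in the indirect arm, with medians of 0.60 and 0.44, where 42% and 50.9% of all probes lay above 0, and 0 passed in either arm alone. GHRH, GAL, NPVF, TAC1, GRP and ADCYAP1 were also counted among the orexigenic or anorexigenic genes above. The lists are therefore not separate sets of genes. Fetal vehicle replicate 4, high for the members, deviated from the gene's mean over the 13 arrays by −0.22 for SST, −0.09 for TAC3 and −0.07 for OXT. For GAL and GNRH1 it deviated by 0.05 and 0.26. Fetal triclosan replicate 4, low for NPY and AGRP, deviated by −1.08, −0.95, −1.12, −0.74 and −0.81 in the same order. That mean includes the triclosan arrays. Among fetal vehicle arrays alone, replicate 4 was the highest for TAC3 (11.3%), GAL (59.6%) and GNRH1 (2.30%). It was not for SST (1153%, against 1407% in replicate 1) or OXT (223%, against 336% in replicate 3). GHRH, described here after its values were seen, was measured at 6.07%, 3.55%, 4.46% and 33.7% in fetal vehicle and at 124%, 46.7%, 50.6% and 6.81% in fetal triclosan replicates 1 to 4. For this gene fetal vehicle replicate 4 was the highest vehicle array and fetal triclosan replicate 4 was low. In the indirect arm GHRH was measured at 1.40% and 6.95% in maternal vehicle, and at 19.2%, 26.2% and 34.04% in maternal triclosan.

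**Figure D4:**
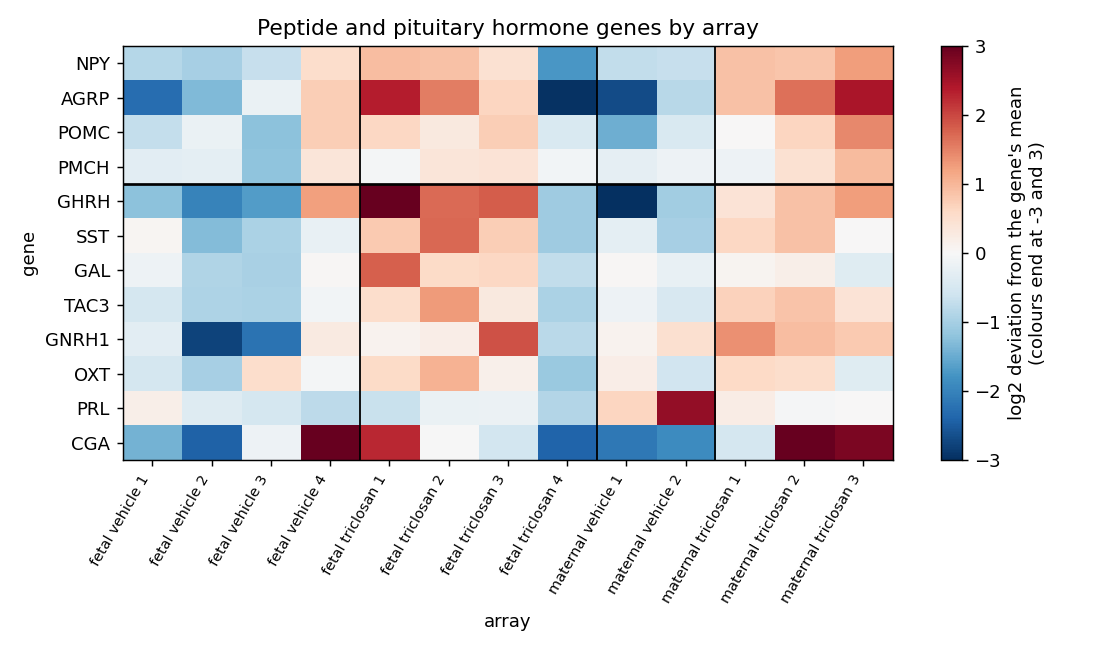
Deviation of log2 signal from the gene's mean over the 13 arrays (colour, ending at −3 and 3) for the members, above the thick line, and for other hypothalamic peptide genes, PRL and CGA, below it, with arrays as columns in group order. Fetal vehicle replicate 4 and fetal triclosan replicate 4 differ from the rest of their groups in several of these genes.

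POMC is also a pituitary transcript, and pituitary markers varied between these arrays. Of 21 pituitary genes listed apart from POMC, 9 were measured and 6 were above background on all arrays. The mean log2 level of the 9 lay between −4.45 and −3.05 in the fetal vehicle group, between −4.48 and −4.02 in fetal triclosan, between −4.37 and −3.62 in maternal vehicle and between −4.55 and −3.31 in maternal triclosan, and 0 of the 9 passed in either arm. CGA, the common subunit of the pituitary glycoprotein hormones, was measured at 4.14%, 2.07%, 10.05% and 105% in fetal vehicle and at 53.5%, 10.99%, 7.58% and 2.11% in fetal triclosan. It was measured at 2.51% and 3.01% in maternal vehicle, and at 7.71%, 97.7% and 78.9% in maternal triclosan. The 4 arrays with the most CGA were all above the median for POMC, NPY and AGRP. PRL, prolactin, showed another order: it was 44.0% in maternal vehicle replicate 2 and 3.86% to 10.99% on the other 12 arrays. CGA and PRL were chosen from the 9 genes after their values were seen, and the 9 did not move together. Differences lay above 0 for 3 of the 9 in the direct arm and for 5 in the indirect arm. In the indirect arm CGA was at 3.83, PRL at −1.57, GHRHR at −1.68 and TRHR at −1.62 (adjusted p = 0.436 to 0.515 in limma). The part of pituitary tissue in the POMC values was not tested.

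Some markers of other cells passed the test in the direct arm, where 11.4% of all probes passed with a lower value. Among 6 measured astrocyte genes EAAT1 and FGFR3 fell in the direct arm, by 0.77 and 1.61 (adjusted p = 0.0132 and 0.0106 in limma), while GJA1 was at 0.46 (adjusted p = 0.224 in limma). EAAT2 was at −0.30 in the direct and −1.44 in the indirect arm (adjusted p = 0.279 and 0.227 in limma). Over both arms EAAT2 was at −0.87 (adjusted p = 0.0114 in limma), where 9.34% of all probes passed. Among 7 measured endothelial genes KDR, FLT1 and CD93 fell, by 1.57, 1.19 and 2.10 (adjusted p = 0.00203, 0.00967 and 0.00677 in limma), and ABCG2 rose by 0.46 (adjusted p = 0.0399 in limma). Among 3 erythroid genes AHSP rose by 0.94 (adjusted p = 0.0383 in limma), and among 3 microglial genes ITGAM fell by 0.95 (adjusted p = 0.0417 in limma), while FCER1G was at 0.46 (adjusted p = 0.0770 in limma) and CD14 at −0.03. The mean log2 level of the 7 endothelial genes was −2.39 to −2.03 with fetal vehicle and −3.21 to −2.82 with fetal triclosan, and −2.25 to −2.11 and −2.42 to −2.16 in the vehicle and triclosan groups of the indirect arm. That of the 6 astrocyte genes was −0.33 to −0.24 and −1.29 to −0.37 in the direct arm, and −0.06 to 0.05 and −0.81 to −0.23 in the indirect arm. That of the 3 erythroid genes was −2.73 to −2.34 and −2.03 to −0.87 in the direct arm, and −3.66 to −2.73 and −2.22 to −1.85 in the indirect arm. That of the 3 microglial genes was −2.67 to −2.10 and −2.92 to −2.35 in the direct arm, and −2.14 to −2.10 and −2.77 to −2.28 in the indirect arm. Of the 4 choroid plexus and ependyma genes 0 passed in either arm, and 0 genes of the neuron, oligodendrocyte and thalamus lists were measured. Whether the makeup of the tissue bears on the appetite peptides was not tested.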

How the data were processed

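Spot intensity values are those of the scanner output, which Agilent Feature Extraction 10.1.1.1 wrote per the file headers. Its processed signal had the background subtracted and was not scaled between arrays. The authors also deposited a table of values, on a log2 scale as judged from the numbers, which served as an alternative only. The submitters' notes list limma, with no step attached.

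From each log2 processed signal the array's 75th percentile was subtracted, control and outlier spots were dropped, and spots of a probe were averaged. Probes well above background on at least 3 arrays were kept (13738 of 15008; 250 values missing). A model with one mean per group was fitted to 13 arrays with limma 3.58.1 (R 4.3.3; 9 residual and 2.36 prior degrees of freedom), two-sided, with Benjamini-Hochberg adjustment over the kept probes. The 5 comparisons were the direct arm, the indirect arm, their difference, their mean, and the vehicle groups. The fit was tested on simulated data. Single genes were also tested by exact permutation, and correlations with 100000 resamples. Tables and plots used Python 3.11.15, pandas 2.3.3, numpy 2.4.6, scipy 1.17.1 and matplotlib 3.10.9. The number of arrays limits the precision.

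Named genes were the members, the 3 genes most correlated with each, and up to 4 genes of each list described, those past the threshold first and then the largest differences. PRL, CGA and GHRH, given by array, were chosen after their values were seen, and of some lists only the called genes or the most relevant are named. Of 265 listed genes in 16 lists, 70 were measured. Members and lists were chosen with earlier results of these data known. Coordinates are not given because no sheep genome was used here.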

Additional observations from a re-analysis of the deposited data

How the results depend on the processing

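The settings tried were median scaling, quantile normalisation, normexp correction, the authors' deposited values, other filters, outlier spots kept, only the groups compared, all 14 arrays, array weights, a variance trend, replicate and slide blocks, values within slides, and leaving out each array. The slide as a random block was added after the data were seen. In the direct and indirect arms and their mean, NPY, AGRP and POMC were above 0 in every setting run, and PMCH in every one but the indirect arm with normexp (−0.069). Direct NPY was 1.32 and AGRP 2.43 with the slide block, and within slides 1 and 2 NPY was 1.79 and 1.90 and AGRP 4.64 and 2.86. Indirect PMCH was 0.12 within slide 1. Averaged over both arms, NPY was called with array weights (1.29) and the slide block (1.45), and so was AGRP (2.44 and 2.78). Averaged POMC was called with median scaling (1.29), a variance trend (1.16), the slide block (1.24) and the random slide block (1.16). With all 14 arrays it was called too (1.16), but that fit counts maternal vehicle replicate 3, a mix of replicates 1 and 2, as a sample. Its calls, for POMC and for the probe counts below, therefore treat a dependent array as independent and are not a valid check. The PMCH difference between arms turned from −0.12 to 0.064 with median scaling, 0.19 with quantile normalisation, 0.45 with normexp, 0.13 with the authors' deposited values, 0.12 with array weights and 0.088 with the slide block, and ranged from −0.40 to 0.15 without 1 array, above 0 when fetal vehicle replicate 4 (0.13) or the third maternal triclosan array (0.15) was left out. Between vehicle groups NPY ranged from −0.38 to 0.13 without 1 array, above 0 without fetal vehicle replicate 4, and PMCH from −0.14 to 0.38, below 0 without fetal vehicle replicate 3. Leaving out each array in turn gave direct values of 0.37 to 1.26 for NPY, 0.51 to 2.29 for AGRP, 0.36 to 1.02 for POMC and 0.23 to 0.76 for PMCH. It gave indirect values of 1.57 to 1.78, 2.49 to 4.35, 1.15 to 2.17 and 0.37 to 0.92, and averaged values of 1.04 to 1.48, 1.83 to 2.85, 0.90 to 1.41 and 0.43 to 0.72, in the same order. Probes called in the direct arm fell from 2498 to 1275 with only the 2 groups and ranged from 1214 to 2951 without 1 array, lowest without fetal vehicle replicate 3. In the indirect arm they rose from 0 to 12 with all 14 arrays and 356 with array weights, and ranged from 0 to 2 without 1 array. For the difference between arms 1 was called with quantile normalisation and 4 with all 14 arrays, and 0 to 12 without 1 array. Averaged, 1283 became 2374 with all 14 arrays, 3015 with array weights, 2609 with the slide block and 2110 with the random slide block, and ranged from 0 (without either maternal vehicle array) to 2216 without 1 array. For the vehicle groups 0 to 2 were called. The cause of these changes was not tested. The replicate numbers were not taken as pairs, since the labels do not say that they pair the animals. Deviations from the group means of same-numbered arrays correlated at −0.17 to 0.46 (median 0.10 over 16 pairs, against −0.02 over 46 other pairs). Deviations sum to 0 within a group, so these 2 sets of correlations are partly tied to each other and cannot decide the pairing. Fetal pairs 1 to 3, which share slides, had 0.13, 0.12 and 0.27, and pair 4, on separate slides, −0.17. With the replicate block, direct NPY was 0.64 (adjusted p = 0.490 in limma), 2824 probes were called directly and 1661 averaged, and no member was called. The AGRP and PMCH signals close to background limit what the lowest arrays can show.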
